A study of Homo sapiens with 2 samples.

Results

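WNT antagonists and WNT feedback targets are the genes by which a cell limits its own WNT signal. The 10 genes described here, chosen by name from the 33538 genes counted, were SFRP1, SFRP2, FRZB, DKK1, DKK4, NOTUM, AXIN2, SP5, LEF1 and NKD1. All 10 were found under these symbols in both libraries, and all 10 reached 1 count per 1000000 UMIs (unique molecular identifiers, the counted transcripts; CPM) in at least 1 of them. The first 6 encode secreted proteins and the last 4 encode proteins that act inside the cell.

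WNT ligands are lipid-modified secreted proteins that bind a Frizzled receptor together with LRP5 or LRP6. The receptors stop the destruction of β-catenin, which then enters the nucleus and switches on genes together with DNA-binding factors of the TCF/LEF family. Secreted frizzled-related proteins bind WNT outside the cell, Dickkopf proteins occupy LRP5 and LRP6, and many genes that β-catenin switches on are themselves inhibitors, so that the pathway brakes itself. In the early embryo WNT signals act with BMP and NODAL in forming the primitive streak.

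Transcripts were counted in single cells of the human embryonic stem cell line H1, after culture in mTeSR1 to which BMP4, a differentiation signal, was added at 50 ng/ml for 48 h. One library, labelled WT here, came from H1 itself, and the other, labelled GATA3 KO, came from KO-GATA3-06, a monoclonal line without intact GATA3, a transcription factor gene. Since that clone derives from H1 cells carrying inducible Cas9, effects of genotype, clonal origin and cassette cannot be told apart. The protocol note of the WT library says 1 h of BMP4, while its title and recorded duration say 48 h, which was used here. Each group is 1 library without a replicate, so no test was made, and every interval below is a 95% interval for counting error alone.

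After limits of 7500 detected genes and 25% mitochondrial counts, 2519 of 3802 WT cells and 4450 of 6221 GATA3 KO cells were kept, with 99587274 and 175285931 UMIs. The median depth was 44415 and 43131.5 UMIs per kept cell, and the libraries shared 8 cell barcodes. GATA3 itself stood at 12.7 CPM in the WT library and 10.9 CPM in the GATA3 KO library, and since a count at the 3′ end does not show a lesion in the coding sequence, it does not check the labels, so WT and GATA3 KO name the labels throughout. The pluripotency markers were present in both libraries, from 55.7 CPM for NANOG to 1480 CPM for POU5F1 in the GATA3 KO library, and summed to 2461 and 3306 CPM. They did not move together. POU5F1 (918 and 1480 CPM), SOX2, LIN28A and DNMT3B were higher in the GATA3 KO library. NANOG (75.6 and 55.7 CPM), TDGF1 (440 and 327 CPM) and DPPA4 (270 and 247 CPM) were lower. Of 5 fibroblast genes, COL3A1, LUM and DCN were at or below 0.0803 CPM, while COL1A2 stood at 66.0 and 53.0 CPM and COL1A1 at 15.2 and 29.4 CPM. All 5 primitive streak markers were at least 2-fold lower in the GATA3 KO library, and their summed level was 252.8 and 12.3 CPM. Of 5 early ectoderm markers that reached 1 CPM, 3 were at least 2-fold higher there (IRX2, FEZF1 and OTX2), with the list at 54.4 and 128 CPM in sum. Of 7 amnion and trophectoderm markers 2 were (TFAP2A and GATA2), with sums of 53.0 and 81.4 CPM. TFAP2A alone stood at 16.7 and 37.7 CPM, and the median log2 ratio of the 7 was only 0.13. KRT7 and HAND1 were higher by less than 2-fold, while ISL1 (4.65 and 2.72 CPM), GATA3 and GABRP were lower in the GATA3 KO library. The part of these cell types in the results below was not tested beyond the marker groups.

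In sum, the secreted antagonists and the targets lay on opposite sides. Summed over the 6 secreted antagonists, the level was 418 CPM (414 to 422) in the WT library and 910.1 CPM (906 to 915) in the GATA3 KO library. For the 4 target genes the sums were 54.8 CPM (53.3 to 56.2) and 12.4 CPM (11.8 to 12.9). The log2 ratio of GATA3 KO over WT, taken after adding 1 CPM to both, was 1.12 (1.10 to 1.14) for the antagonists and -2.06 (-2.13 to -1.99) for the targets. There were thus 7.64 UMIs of secreted antagonists for each UMI of a target in the WT library, and 73.6 in the GATA3 KO library. These sums hide unlike members. SFRP1, SFRP2 and FRZB together stood at 401 CPM in the WT library and 904 CPM in the GATA3 KO library, a log2 ratio of 1.17. DKK1, DKK4 and NOTUM together stood at 17.1 and 5.78 CPM, a log2 ratio of -1.42 (-1.52 to -1.32). That is the direction of the targets, although NOTUM alone was slightly higher in the GATA3 KO library. SFRP2 gave 63.2% of the antagonist UMIs in the WT library and SFRP1 gave 57.2% in the GATA3 KO library, while SP5 gave 77.4% of the target UMIs in the former and AXIN2 41.6% in the latter. The median log2 ratio was 0.38 over the antagonists and -0.73 over the targets, beside 0.07 over all genes of at least 1 CPM.

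Of the 10 genes, 2 were at least 2-fold higher in the GATA3 KO library (SFRP1 and FRZB) and 3 at least 2-fold lower there (DKK1, DKK4 and SP5). Among all 13523 genes of at least 1 CPM, 2.06% were higher and 2.27% lower by that measure. FRZB, at a log2 ratio of 1.02, lay just past 2-fold, and LEF1, at -0.97, just short of it. Adding 1 CPM pulls the ratios of sparse genes toward 0, so for these the plain ratio is also given. DKK4 fell short of 2-fold, at -0.93, over all deposited cells, and LEF1 went past it, at -1.56, with 0.1 CPM added in place of 1. All 10 genes are protein-coding, and their positions below are those of GENCODE on GRCh38.

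**Figure D1:**
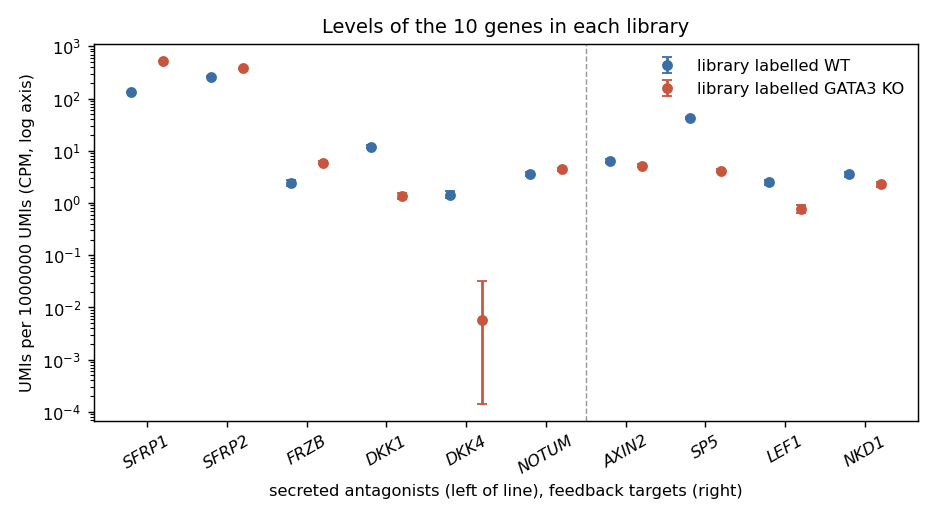
Level of each of the 10 genes in the 2 libraries, in CPM on a log axis, with 95% counting intervals. SFRP1, SFRP2, FRZB and NOTUM lie higher in the GATA3 KO library and the other 6 lie lower, with DKK4 at a single UMI.

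Cells were next sorted by marker transcripts, since the libraries differed in their mix of cells. Each cell of at least 10000 UMIs was thinned at random to 10000 UMIs, which left 2173 WT and 4038 GATA3 KO cells and left out 346 and 412 shallower ones. A cell with a UMI of MIXL1, EOMES or TBXT, transcription factors of the primitive streak, was called a streak-marker cell. Of the others, a cell with HAND1, ISL1 or TFAP2A, factors of amnion and trophectoderm, was called an amnion-marker cell, and the rest were divided by SOX2 and NANOG. The streak-marker cells thus include 166 WT and 75 GATA3 KO cells that also held an amnion marker. Streak-marker cells made up 45.7% (993 cells) of the WT library and 5.89% (238 cells) of the GATA3 KO library. Amnion-marker cells made up 7.36% and 16.8%, SOX2 cells without NANOG 20.8% and 45.3%, SOX2 cells with NANOG 16.6% and 28.5%, and cells with none of these 9.62% and 3.54%. The groups are bins and not cell types. Levels of the streak markers themselves differed within the streak-marker cells, as given below beside SP5.

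SFRP1, a secreted frizzled-related protein (ENSG00000104332, chromosome 8, 41261962 to 41309473 of GRCh38), stood at 134 CPM (132 to 137) in the WT library and 520.1 CPM (517 to 524) in the GATA3 KO library. It was 3.87-fold higher in the latter (3.80 to 3.94). The log2 ratio was 1.94 (1.92 to 1.97), and 99.9% of all genes of at least 1 CPM had a lower ratio. At 10000 UMIs it was found in 36.9% (34.9 to 39.0) of WT cells and 77.3% (76.0 to 78.6) of GATA3 KO cells. WT cells had a median of 0 SFRP1 UMIs, and GATA3 KO cells a median of 4. At least 10 UMIs were found in 3.18% and 20.4% of cells. More GATA3 KO cells held the transcript, and more of them held many copies of it.

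**Figure D2:**
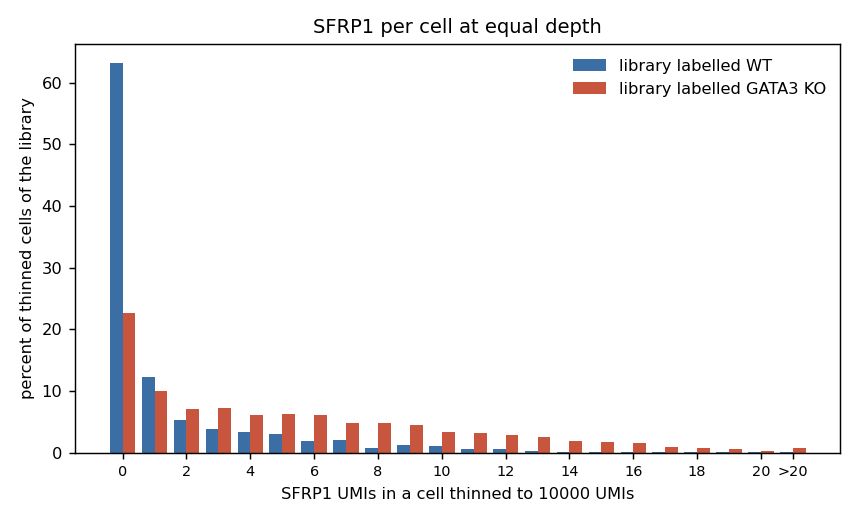
Distribution of SFRP1 UMIs per cell after thinning to 10000 UMIs, as the share of cells in each library at each count. No SFRP1 UMI was found in 63.1% of WT cells and 22.7% of GATA3 KO cells.

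SFRP1 was higher in the GATA3 KO library within all 5 marker groups. In streak-marker cells it stood at 24.7 CPM (23.2 to 26.1) against 130 CPM (123 to 136), a log2 ratio of 2.35 that was 1.32 in cells with at least 2 UMIs of the streak markers (14.3 and 37.3 CPM), a limit chosen after the values were seen. It stood in amnion-marker cells at 78.8 CPM (72.1 to 85.9) against 168 CPM (164 to 173). The level was highest in SOX2 cells without NANOG, at 364 CPM (356 to 372) and 719.7 CPM (714 to 726). These cells held 56.4% of all SFRP1 UMIs in the WT library and 62.2% in the GATA3 KO library. No group lacked SFRP1, so its background from free RNA could not be read from one. With each of the 5 groups set to the same share of cells in both libraries, the mean of its shares in them, the log2 ratio was 1.18 in place of 1.94.

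The SFRP1 level was higher in cells with more SOX2, a core pluripotency factor that was itself higher in the GATA3 KO library (149.5 and 388.6 CPM). In bins of SOX2 UMIs set after the values were seen, SFRP1 in the WT library went from 27.0 CPM in cells with 0 SOX2 UMIs through 144 CPM (1 to 2 UMIs) and 289 CPM (3 to 5 UMIs) to 476 CPM in cells with 6 or more. In the GATA3 KO library the same bins gave 86.0, 366, 600.4 and 759.6 CPM, higher in each bin. Across cells, the genes with a pattern most like SFRP1 among 8919 candidates were TERF1, which encodes a telomere-binding protein, CD24, a cell surface protein, and SOX2. Pearson's r of log UMIs was 0.58, 0.60 and 0.54 over 2173 WT cells and 0.61, 0.52 and 0.54 over 4038 GATA3 KO cells. Cells of 1 library share that library, so these are descriptions.

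SFRP2, of the same family (ENSG00000145423, chromosome 4, 153780591 to 153789083), differed less, and evenly over the 5 marker groups. Its level was 264 CPM (261 to 268) and 378 CPM (375 to 381) in the WT and GATA3 KO libraries, a log2 ratio of 0.52 (0.49 to 0.54). It was found in 88.0% and 93.6% of thinned cells. Within the 5 groups its log2 ratio lay between 0.44 and 0.62, and with group shares matched in this way it was 0.53. Over the bins of SOX2 UMIs it was less even. It was 0.15 (0.10 to 0.19) in cells with 0 SOX2 UMIs, and 0.52, 0.55 and 0.48 in the higher bins. At least 1 SFRP2 UMI was found in most cells of every group, from 76.9% of amnion-marker WT cells to 97.1% of SOX2 GATA3 KO cells with NANOG. No group lacked SFRP2, so what free RNA adds to these shares could not be read. The genes most like it across cells were THY1, SEPHS1 and L1TD1, with a mean r over both libraries of only 0.21 to 0.23.

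FRZB, also a frizzled-related antagonist (ENSG00000162998, chromosome 2, 182833275 to 182866637), was sparse. It stood at 2.44 CPM (2.14 to 2.77) in the WT library and 5.96 CPM (5.60 to 6.33) in the GATA3 KO library, 2.44-fold higher (2.12 to 2.82). Thinned cells held it in 2.35% and 5.72% of cases. In amnion-marker cells it stood at 1.23 CPM (0.531 to 2.42) and 4.87 CPM (4.10 to 5.73), and in SOX2 cells without NANOG at 3.71 CPM (2.93 to 4.65) and 7.31 CPM (6.72 to 7.94). In streak-marker cells it was 1.84 CPM (1.47 to 2.27) and 2.65 CPM (1.77 to 3.80), intervals that overlap. With matched group shares its log2 ratio was 0.71, short of 2-fold.

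**Figure D3:**
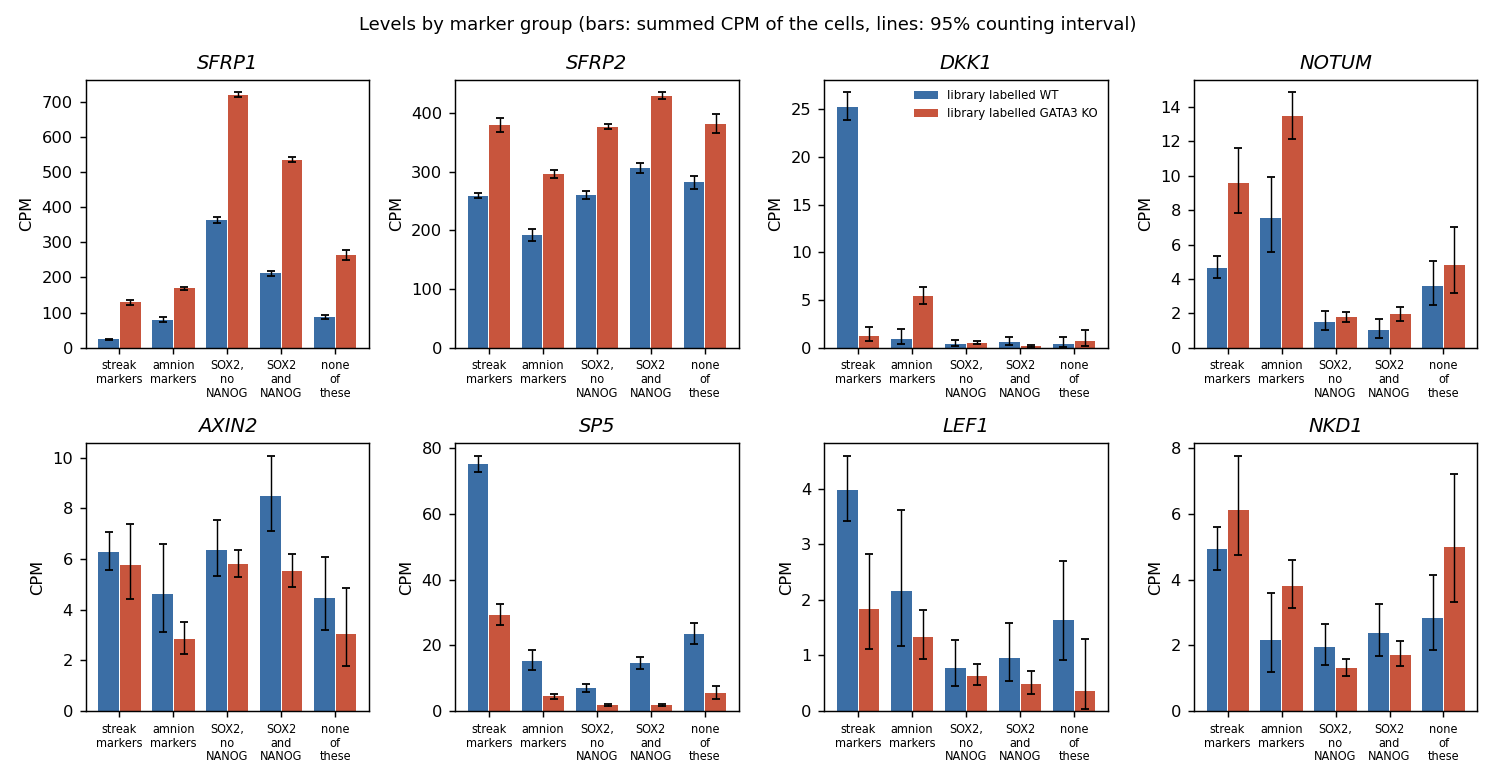
Summed CPM of 8 of the 10 genes in the 5 marker groups of each library, with 95% counting intervals. SFRP1 and SFRP2 are higher in the GATA3 KO library in all 5 groups, SP5 is lower in all 5, and DKK1 is concentrated in streak-marker WT cells.

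The Dickkopf genes behaved unlike the frizzled-related genes. DKK1, which blocks LRP5 and LRP6 (ENSG00000107984, chromosome 10, 52314281 to 52318042), stood at 12.1 CPM (11.4 to 12.8) in the WT library and 1.35 CPM (1.19 to 1.54) in the GATA3 KO library. It was 8.94-fold lower by the plain ratio (7.77 to 10.3), and the log2 ratio after adding 1 CPM was -2.48 (-2.60 to -2.35). Only 4.74% (3.89 to 5.72) and 0.817% (0.563 to 1.15) of thinned cells held a UMI, but up to 12 UMIs were found in 1 thinned cell. PRKG1-AS1 overlaps DKK1 on the opposite strand.

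DKK1 lay in different cells in the 2 libraries. Streak-marker cells held 97.7% of its UMIs in the WT library, and amnion-marker cells held 71.6% in the GATA3 KO library. In streak-marker cells the level was 25.3 CPM (23.9 to 26.8) against 1.28 CPM (0.699 to 2.15), and in amnion-marker cells 0.922 CPM (0.338 to 2.01) against 5.41 CPM (4.60 to 6.32). The log2 ratios, -3.53 and 1.74, were opposite in sign. The amnion-marker ratio rested on few cells, with 6 DKK1 UMIs in 160 WT cells and 159 in 677 GATA3 KO cells. After thinning, DKK1 was found in 0 of these WT cells (0 to 2.28%) and 16 of these GATA3 KO cells (2.36%, 1.36 to 3.81). These intervals for the shares overlap. The background was low, since DKK1 was found in 0.222% (1 of 451) of SOX2 WT cells without NANOG, at a median depth of 46910 UMIs, against 9.77% (97 of 993) of streak-marker cells, at 48919 UMIs. In the GATA3 KO library it was found in 0.492% of SOX2 cells without NANOG and 2.36% of amnion-marker cells, at median depths of 44711 and 44587 UMIs.

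Within the streak-marker WT cells, DKK1 was held by a minority. These were divided by CER1, a secreted antagonist of NODAL and BMP, a split chosen after the values were seen. The 231 cells with CER1 held 1049 DKK1 UMIs at 95.7 CPM (90.0 to 102), and 34.6% of them had DKK1. The other 762 cells held 122 UMIs at 3.45 CPM (2.87 to 4.12). The GATA3 KO library had only 14 such CER1 cells, with 1 DKK1 UMI. In its 224 streak-marker cells without CER1 the level was 1.26 CPM (0.673 to 2.16). In 210 amnion-marker cells of that library with HAND1 or ISL1, a subset also chosen after the values were seen, it stood at 10.6 CPM (8.57 to 12.8).

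DKK4 (ENSG00000104371, chromosome 8, 42374063 to 42377229), the other Dickkopf gene, had 145 UMIs in the WT library (1.46 CPM, 1.23 to 1.71) and 1 UMI in the GATA3 KO library (0.00570 CPM, 0.000144 to 0.0318). The plain ratio was 255-fold in favour of WT, with a counting interval from 45.1 to 10149. Streak-marker cells held 99.3% of the WT UMIs, and 142 of the 145 lay in the CER1 cells. In streak-marker GATA3 KO cells there were 0 UMIs, and the WT level was 11.3-fold a floor of 3 counts (0.274 CPM). That figure treats UMIs as independent, but the 145 WT UMIs lay in only 32 cells. At equal depth DKK4 was found in 0.690% (0.387 to 1.14) of WT and 0.0248% (0.000627 to 0.138) of GATA3 KO cells. Among streak-marker cells with CER1 it was found in 6.49% (3.68 to 10.5) of 231 WT cells. In the 14 such GATA3 KO cells it was found in 0 (0 to 23.2%), so these intervals overlap. DKK1 and DKK4 met in the same cells: DKK4 was found in 10.7% (11 of 103) of thinned WT cells with DKK1 and 0.193% (0.0527 to 0.494) of those without, and the former share has an interval from 5.45% to 18.3%.

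NOTUM, an enzyme that removes the lipid from WNT (ENSG00000185269, chromosome 17, 81952507 to 81961840), differed by less than 2-fold in sum. It stood at 3.59 CPM (3.23 to 3.99) in the WT library and 4.43 CPM (4.12 to 4.75) in the GATA3 KO library, giving a log2 ratio of 0.24 (0.09 to 0.39), and 3.91% and 4.09% of thinned cells held it. This ratio depended on the cells kept. It was 0.014 over all deposited cells, 0.025 with the mitochondrial limit only and 0.657 with matched group shares. Genes within 1 Mb of NOTUM had a median log2 ratio of 0.46 over 45 genes, above that of NOTUM. AC145207.1 overlaps it on the opposite strand.

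The NOTUM ratio depended on the group. Its log2 ratio was 0.90 in streak-marker cells, 0.76 in amnion-marker cells and 0.54 in SOX2 cells with NANOG, but 0.13 (-0.23 to 0.48) in SOX2 cells without NANOG. Its share of cells in the WT library was 0.665% in SOX2 cells without NANOG and 5.44% in streak-marker cells. In streak-marker cells it stood at 4.66 CPM (4.06 to 5.33) and 9.59 CPM (7.84 to 11.6), and in amnion-marker cells at 7.53 CPM (5.57 to 9.95) and 13.4 CPM (12.2 to 14.8). Streak-marker cells held 62.6% of its UMIs in the WT library, and amnion-marker cells 51.9% in the GATA3 KO library. In the 210 amnion-marker GATA3 KO cells with HAND1 or ISL1 the level was 20.2 CPM and 20.0% of cells had NOTUM. Within all amnion-marker cells of the GATA3 KO library, NOTUM was found in 3.70% (1.79 to 6.71) of cells with SFRP1 and 18.9% (15.2 to 23.1) of cells without it, so most NOTUM-bearing cells there had no SFRP1 UMI. In amnion-marker WT cells these shares were 0 (0 to 9.49%) and 13.8% (8.26 to 21.2). Streak-marker cells showed no such gap, with 6.00% and 5.34% in the WT library and 7.78% and 10.8% in the GATA3 KO library. The intervals of each of these pairs overlap.

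SP5, a zinc-finger repressor and a direct target of β-catenin (ENSG00000204335, chromosome 2, 170715337 to 170718078), had the lowest log2 ratio of the 10 genes after adding 1 CPM, although by the plain ratio and with 0.1 CPM added (-3.31 for SP5 and -3.88 for DKK4) DKK4 was lower. It stood at 42.4 CPM (41.1 to 43.7) in the WT library and 4.18 CPM (3.88 to 4.49) in the GATA3 KO library, 10.2-fold lower by the plain ratio (9.38 to 11.0). The log2 ratio after adding 1 CPM was -3.07 (-3.16 to -2.97). It was found in 26.3% (24.5 to 28.2) and 2.55% (2.09 to 3.09) of thinned cells. Genes within 1 Mb had a median log2 ratio of -0.18. AC007405.1 overlaps SP5 on the opposite strand.

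The SP5 and DKK1 promoters are shown because, of the 5 genes with a promoter in the RefSeq table (GRCh38.p14), only these hold the letters that TCF/LEF factors are known to bind. Each runs from 250 bases before the gene's start to 50 after it and is written 5′ to 3′ on the plus strand, on which both genes lie. Capitals mark CTTTGNN, where each N is A or T, on either strand, and the marked matches do not overlap one another. SP5 is at chr2:170715087-170715386 and DKK1 at chr10:52314031-52314330.
SP5: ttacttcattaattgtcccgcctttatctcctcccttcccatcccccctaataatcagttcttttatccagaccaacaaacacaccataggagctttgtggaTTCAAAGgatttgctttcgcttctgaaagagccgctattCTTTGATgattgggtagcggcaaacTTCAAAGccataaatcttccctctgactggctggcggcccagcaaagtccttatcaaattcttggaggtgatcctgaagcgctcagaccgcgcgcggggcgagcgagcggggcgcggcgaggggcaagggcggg
DKK1: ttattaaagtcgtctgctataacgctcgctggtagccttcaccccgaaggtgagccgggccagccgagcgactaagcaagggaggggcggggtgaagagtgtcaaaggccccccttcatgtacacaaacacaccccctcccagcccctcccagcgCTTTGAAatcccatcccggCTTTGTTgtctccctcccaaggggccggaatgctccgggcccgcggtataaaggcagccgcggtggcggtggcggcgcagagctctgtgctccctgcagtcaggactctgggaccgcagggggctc
SP5 holds 3 matches, a number reached by 0.179% of 35116 promoters of this length, and DKK1 holds 2, a number reached by 1.58%. At least 1 match lies in 13.8% of promoters. SFRP2, FRZB and LEF1 hold 0, and no promoter was used for SFRP1, DKK4, NOTUM, AXIN2 and NKD1. A match describes letters in this window and is not a bound site.

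SP5 was lower in the GATA3 KO library within all 5 groups. In streak-marker cells, which held 83.5% of its UMIs in the WT library, it stood at 75.1 CPM (72.6 to 77.6) and 29.1 CPM (26.0 to 32.5), giving a log2 ratio of -1.34. In SOX2 cells with NANOG it stood at 14.5 CPM (12.7 to 16.5) and 1.86 CPM (1.50 to 2.28), giving a log2 ratio of -2.44. Streak markers were lower there too when all UMIs of these cells were counted, with MIXL1 at 6.00 and 1.51 CPM, EOMES at 9.01 and 2.62 CPM and TBXT at 2.43 and 0.525 CPM. The share of cells with SP5 was 4.21% in SOX2 WT cells without NANOG and 45.1% in streak-marker cells. MIXL1 went from 283 to 50.0 CPM, EOMES from 136 to 67.2 CPM and TBXT from 44.0 to 15.4 CPM between the WT and GATA3 KO streak-marker cells, and the part of these markers in the SP5 difference was not tested. In cells with at least 2 UMIs of these markers, a limit chosen after the values were seen, the SP5 log2 ratio was -0.70. With matched group shares it was -1.49 in place of -3.07.

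SP5 and SFRP1 were also counted cell by cell. In the WT library, SP5 was found in 9.48% (7.54 to 11.7) of cells with SFRP1 and 36.2% (33.6 to 38.8) of cells without it. Within streak-marker cells of that library the shares were 30.7% (23.4 to 38.7) and 47.7% (44.3 to 51.1), a smaller gap. In GATA3 KO cells SP5 was found in 1.44% (1.05 to 1.92) of cells with SFRP1 and 6.32% (4.84 to 8.10) of those without, but within their amnion-marker cells the order was the opposite, at 3.33% (1.54 to 6.23) and 1.23% (0.400 to 2.84), with intervals that overlap. SP5 was found in 66.0% (56.0 to 75.1) of WT cells with DKK1 and 24.3% (22.5 to 26.3) of those without. Both genes lay mostly in streak-marker cells. Counted the other way, DKK1 was found in 11.9% of all WT cells with SP5 and 2.19% of those without. Within streak-marker WT cells these shares were 14.5% (11.4 to 18.1) and 5.87% (4.05 to 8.19).

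AXIN2, a scaffold of the complex that destroys β-catenin and a widely used readout of WNT signalling (ENSG00000168646, chromosome 17, 65528563 to 65561648), differed little in sum. It stood at 6.34 CPM (5.85 to 6.85) and 5.14 CPM (4.81 to 5.49) in the WT and GATA3 KO libraries, a log2 ratio of -0.26 (-0.38 to -0.13). It was found in 6.72% (5.70 to 7.85) and 5.05% (4.40 to 5.77) of thinned cells. Streak-marker cells held 46.6% of its UMIs in the WT library and were 45.7% of its cells, whereas they held 83.5% of the SP5 UMIs. In streak-marker cells it stood at 6.28 CPM (5.58 to 7.05) and 5.75 CPM (4.42 to 7.36), and in SOX2 cells with NANOG at 8.49 CPM (7.11 to 10.1) and 5.51 CPM (4.88 to 6.21). Over the bins of SOX2 UMIs used for SFRP1, AXIN2 was lower in the GATA3 KO library in each. Its log2 ratios were -0.58 (0 UMIs), -0.74 (1 to 2), -0.52 (3 to 5) and -0.32 (6 or more). The last had an interval from -0.73 to 0.11. AC004805.1 overlaps AXIN2 on the same strand, so counts from the overlap are uncertain.

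LEF1, a DNA-binding partner of β-catenin (ENSG00000138795, chromosome 4, 108047545 to 108168956), stood at 2.48 CPM (2.18 to 2.81) in the WT library and 0.776 CPM (0.651 to 0.918) in the GATA3 KO library. The plain ratio was 3.20-fold lower (2.58 to 3.97), and the log2 ratio after adding 1 CPM was -0.97 (-1.13 to -0.80). Streak-marker cells held 75.4% of its UMIs in the WT library and 14.8% in the GATA3 KO library. In these cells it stood at 3.97 CPM (3.42 to 4.59) and 1.83 CPM (1.12 to 2.82), giving a log2 ratio of -0.815. Among cells with at least 2 UMIs of the streak markers, a limit chosen after the values were seen, it was -0.41 (-1.10 to 0.27).

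NKD1, which binds Dishevelled and dampens the pathway (ENSG00000140807, chromosome 16, 50548396 to 50649249), stood at 3.56 CPM (3.20 to 3.96) and 2.27 CPM (2.05 to 2.51), giving a log2 ratio of -0.48 (-0.64 to -0.33). Its values lay in different directions by group, with overlapping intervals in each group given here. It was 4.92 CPM (4.30 to 5.60) and 6.12 CPM (4.74 to 7.77) in streak-marker cells and 2.15 CPM (1.18 to 3.61) and 3.81 CPM (3.14 to 4.59) in amnion-marker cells, higher in the GATA3 KO library, although the intervals overlap. It was 1.95 CPM (1.40 to 2.66) and 1.31 CPM (1.07 to 1.59) in SOX2 cells without NANOG, lower there, again with intervals that overlap. With matched group shares its log2 ratio was 0.11. AC007608.1 and AC007608.2 overlap NKD1 on the opposite strand.

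**Figure D4:**
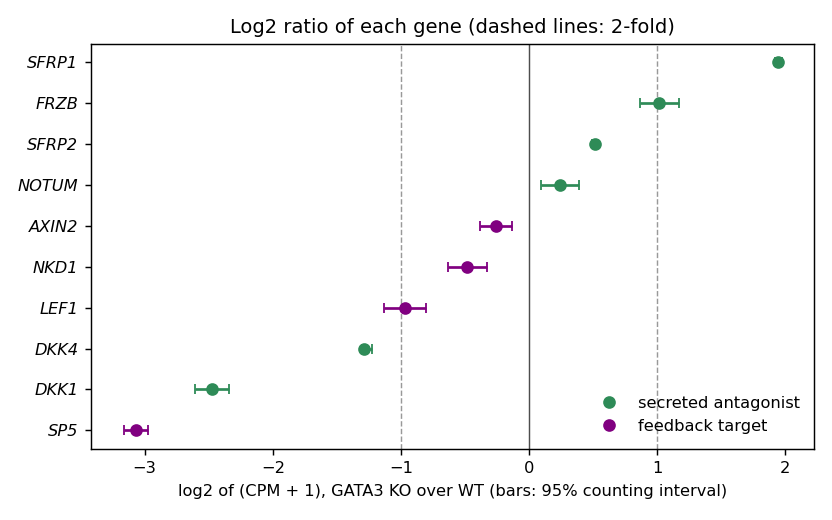
Log2 ratio of GATA3 KO over WT of the 10 genes, after adding 1 CPM, with 95% counting intervals. Ratios run from -3.07 for SP5 to 1.94 for SFRP1, and the targets lie at or below -0.26.

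At equal depth the shares of cells differed in the same directions as the sums. At least 1 UMI of a secreted antagonist was found in 93.2% (92.0 to 94.2) of WT cells and 98.0% (97.5 to 98.4) of GATA3 KO cells, 4.83 percentage points apart (3.70 to 6.04). At least 1 UMI of a target was found in 34.5% (32.5 to 36.6) and 9.76% (8.86 to 10.7), 24.8 points lower in the GATA3 KO library (22.5 to 27.0). Without thinning the shares were 94.0% and 96.6% for the antagonists and 58.2% and 27.8% for the targets. SFRP2 alone was found in 88.0% and 93.6% of thinned cells. DKK1, DKK4 and NOTUM together were found in 8.56% and 4.83%, a difference of -3.73 points (-5.14 to -2.39), the direction of the targets. With matched group shares the summed log2 ratios were 0.81 for the antagonists and -1.03 for the targets.

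The rest of the pathway was read from lists of its genes by the same 2-fold measure. Of 19 WNT ligand genes 7 reached 1 CPM, with 1 higher, WNT6 at 3.14 and 7.60 CPM, and 2 lower in the GATA3 KO library. The lower ones were WNT3, a ligand needed for the primitive streak in the mouse, at 22.7 and 4.94 CPM, and WNT5A at 3.84 and 0.936 CPM. The median log2 ratio of the 7 ligands was -0.82. Among 15 of 19 receptor and agonist genes that reached 1 CPM, the Frizzled receptor gene FZD2 was higher (9.65 and 31.7 CPM) and the agonist RSPO3 lower (1.31 and 0.148 CPM), while the best-counted, FZD3, stood at 47.8 and 47.0 CPM. Their median was -0.11.

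Of 12 other antagonists 9 reached 1 CPM, 0 were higher and 2 were lower, with a median of 0.24. These were CER1, an antagonist of NODAL and BMP kept on this list, at 65.2 and 1.06 CPM and APCDD1, a membrane-bound inhibitor, at 4.69 and 1.37 CPM. Of 8 other feedback genes, all 8 reached 1 CPM, 0 were higher and DACT1 was lower, at 8.26 and 2.64 CPM, with a median of -0.13. ZNRF3, a ubiquitin ligase that removes Frizzled receptors, stood at 10.7 and 10.1 CPM. Of 20 core genes 18 reached 1 CPM, 0 were lower and 2 were higher, with a median of 0.19. These were TCF7L1 at 42.0 and 121 CPM and TCF7L2 at 47.1 and 98.3 CPM, DNA-binding partners of β-catenin, TCF7L1 acting mainly as a repressor. CTNNB1, the gene of β-catenin, stood at 135 and 109 CPM.

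**Figure D5:**
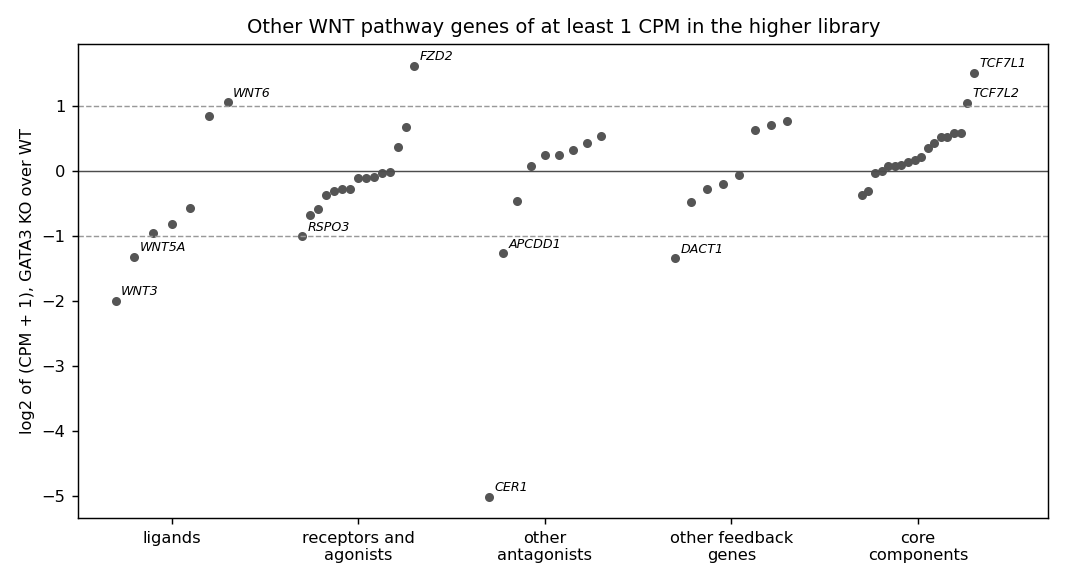
Log2 ratio of GATA3 KO over WT, after adding 1 CPM, for genes of the WNT pathway that reached 1 CPM, by list. List medians lie between -0.82 for ligands and 0.24 for other antagonists. CER1, an antagonist of NODAL and BMP kept on that last list, is farthest from 0 at -5.01.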

How the data were processed

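The authors made 10x Genomics 3′ v3 libraries and deposited raw counts of UMIs per gene and cell barcode, made with Cell Ranger 3.0.2 per the file headers on a GRCh38 reference. Samples were grouped by the deposited labels. Cells beyond 7500 detected genes or 25% mitochondrial counts were removed, and doublets were not removed. Counts were summed per library as CPM with exact Poisson intervals, and ratios used a pseudocount of 1 CPM with exact binomial intervals. Shares were taken at 10000 UMIs with Clopper-Pearson intervals. UMI counts are not divided by gene length, so sums, shares and ratios over several genes are of UMIs and do not rank the genes by transcript level. All 10 genes are described. Of each other list, the genes past 2-fold and a few of the best counted are named, the latter chosen after their values were seen. For genes found in at least 5% of cells of both libraries, the 3 most alike are given, and those of AXIN2 (r up to 0.07) were too weak to describe. The genes and lists were chosen with earlier results of these data known. The scripts were tested on simulated data. Python 3.11.15, numpy 2.4.6, scipy 1.17.1, pandas 2.3.3 and edgeR 4.0.16 (for TMM scaling) were used.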

Additional observations from a re-analysis of the deposited data

Results flagged for a closer look

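The DKK1 log2 ratio of GATA3 KO over WT was 1.74 in amnion-marker cells and -3.53 in streak-marker cells, opposite in sign. The difference between the 2 groups was not tested, since each library is 1 sample. The amnion-marker ratio rested on 6 DKK1 UMIs in the WT library. The shares of thinned amnion-marker cells with DKK1 had overlapping intervals, 0 to 2.28% in the WT library and 1.36 to 3.81% in the GATA3 KO library. The streak-marker ratio rested mostly on 231 WT cells with CER1, which held 1049 DKK1 UMIs, while the GATA3 KO library had 14 such cells. In streak-marker cells without CER1, a split chosen after the values were seen, the log2 ratio was -0.97 (-1.45 to -0.45). There DKK1 was found in 2.23% (1.30 to 3.55) and 1.79% (0.489 to 4.51) of cells, intervals that overlap.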

How the results depend on the processing

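Every ratio and share difference below is GATA3 KO against WT, and no summed result changed sign under an alternative. The summed antagonist log2 ratio (1.12) was 1.18 over all deposited cells, 1.19 with the mitochondrial limit only, 1.08 without mitochondrial and ribosomal protein genes in the total, 1.08 as the mean of per-cell CPM and 0.81 with the shares of the 5 marker groups matched between libraries. The summed target log2 ratio (-2.06) was -2.14 with a pseudocount of 0.1 CPM, -1.98 as the mean of per-cell CPM, -1.03 with matched group shares and -1.99 without the 10% of cells with the most UMIs. With matched group shares 1 gene, SFRP1, in place of 2 was at least 2-fold higher. The number of genes at least 2-fold lower lay between 2 and 4: DKK4 fell short over all deposited cells (-0.93), with the mitochondrial limit only (-0.94) and with matched group shares (-0.86), and LEF1 passed with a pseudocount of 0.1 CPM (-1.56), the reduced total (-1.17) and without the deepest cells (-1.04). The antagonist share difference (4.83 points) was 14.1 at 5000 UMIs, 0.539 at 20000 UMIs, 13.4 with a minimum of 2 UMIs, 2.60 without thinning and 3.48 with matched group shares. The target share difference (-24.8 points) was -16.2, -31.2, -11.6, -30.4 and -13.3 in the same order. Of 100 values of single genes 35 moved beyond their counting interval and 7 by over 1.5 times, and only NKD1 changed sign, to 0.11 with matched group shares. In streak-marker cells with at least 2 marker UMIs, SFRP1 went from 2.35 to 1.32, SP5 from -1.34 to -0.70, FRZB from 0.36 to -0.16 and AXIN2 from -0.11 to 0.03. The limit of 2 marker UMIs, leaving out the deepest cells and leaving out shared barcodes were chosen after seeing the data. No paired analysis was possible because each group is 1 library. The cause of each shift was not tested. Depth limits values in small groups: the 238 GATA3 KO streak-marker cells held 0 UMIs of DKK4, 14 of DKK1, 20 of LEF1 and 29 of FRZB.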
